A study of Mus musculus with 11 samples.

Results

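The 9 smooth muscle contractile genes Acta2, Tagln, Myh11, Cnn1, Tpm2, Ppp1r14a, Ldb3, Cacna1c and Myom1 were followed through 11 RNA-seq libraries of isolated mouse glomeruli. They were 9 of the 13734 genes in the deposited table of read counts, found by symbol with all 27 of their RefSeq transcripts, and they had been listed because their levels differ between libraries whose titles take different forms. The db/db puerarin group (n = 3) came from male db/db mice, which carry the db allele of the leptin receptor gene Lepr on both chromosomes and become obese and diabetic. These mice received puerarin, an isoflavone glycoside of kudzu root, dissolved in 5% DMSO, by daily gavage (20 mg per kg each day) for 6 weeks from 10 weeks of age. The db/db vehicle group (n = 4) received 5% DMSO alone, and the db/m vehicle group (n = 4) held littermates with a single db allele on the same DMSO vehicle, so that DMSO was common to all 3 groups. The labels give the background as BKS in one place and as C57BL/6J in another, and do not say whether a library came from 1 animal or a pool, so the spread between libraries may be technical in part.

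Titles were of 2 kinds, a group tag with a number (6 libraries: db/db puerarin 2 and 3, db/db vehicle 1 and 3, db/m vehicle 2 and 3) or an S number (5 libraries: db/db puerarin S144, db/db vehicle S152 and S153, db/m vehicle S184 and S185). The labels name more than 1 sequencing site without tying libraries to them, so what the title form stands for is not given. Libraries held 35369703 to 44244460 reads over all transcripts. Levels below are CPM, the reads of a gene scaled to a common library size with TMM factors. A marker of the labelled tissue, Podxl (podocalyxin, a surface protein of podocytes), was at 1350.4 to 2145 CPM per kilobase of transcript over the libraries. Tubule markers were present too. Summed levels of 11 loop and distal tubule genes were 3177 to 17283 CPM, against 12996.5 to 19506.6 CPM for 17 podocyte genes. In db/db vehicle 3 this tubule sum (17283 CPM) exceeded the podocyte sum (12996.5 CPM). Libraries db/db puerarin 2 and 3 stood apart in Xist, which coats the silenced X chromosome in female cells, at 528.5 and 819 CPM, against 0.519 to 6.47 CPM in the other 9, although all mice are labelled male. Library db/db vehicle 1 stood apart in C1qa, a macrophage complement gene, at 93.3 CPM, against 0.988 to 22.7 CPM in the other 10.

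Smooth muscle contracts when calcium, entering through L-type channels, activates a kinase that phosphorylates the light chain of myosin, which then pulls on actin filaments. Myosin phosphatase reverses this step. In the kidney these proteins are made by arteriolar smooth muscle and, in part, by mesangial cells and pericytes. Serum response factor (SRF) with its coactivator myocardin switches many of the genes on through a DNA element called the CArG box. In bulk glomerular RNA, fewer cells of a type and less RNA per cell cannot be told apart.

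RefSeq promoter windows (250 bases before to 50 bases after the gene start, GRCm38.p6, the same assembly as mm10) were at hand for 7 of the 9 genes, and Tagln and Myh11 were the other 2. The windows below are shown because SRF acts through the CArG box. On either strand an exact CArG box was present in the windows of Ldb3 and Myom1. It was absent, in that exact form (CC, then only A or T, then GG), from those of Acta2, Cnn1, Tpm2, Ppp1r14a and Cacna1c. The Acta2 window does hold ccctatatgg and ccttgtttgg, each a single base away from that form and not capitalised below. Such near matches were not searched for in the other windows. Among all 32544 windows 1.64% held an exact CArG box. The MCAT motif CATTCC, bound by TEAD factors, was found in the Acta2 window and in 14.6% of all windows, and it overlapped no CArG box in the windows shown. Capitals mark the CArG box in Ldb3 (chr14:34588632-34588931, minus strand) and in Myom1 (chr17:71019307-71019606, plus strand), and the MCAT motif, read on the opposite strand, in Acta2 (chr19:34255324-34255623, minus strand).
Ldb3: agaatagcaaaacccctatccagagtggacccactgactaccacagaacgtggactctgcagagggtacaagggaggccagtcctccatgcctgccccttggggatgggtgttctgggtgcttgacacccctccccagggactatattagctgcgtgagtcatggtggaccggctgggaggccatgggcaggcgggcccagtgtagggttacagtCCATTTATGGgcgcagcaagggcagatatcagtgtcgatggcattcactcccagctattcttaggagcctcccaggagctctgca
Myom1: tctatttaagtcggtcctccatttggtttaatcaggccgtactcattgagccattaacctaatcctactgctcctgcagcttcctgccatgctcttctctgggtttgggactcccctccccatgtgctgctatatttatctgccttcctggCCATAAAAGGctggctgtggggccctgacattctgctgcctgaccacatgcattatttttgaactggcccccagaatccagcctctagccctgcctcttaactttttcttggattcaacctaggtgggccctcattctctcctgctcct
Acta2: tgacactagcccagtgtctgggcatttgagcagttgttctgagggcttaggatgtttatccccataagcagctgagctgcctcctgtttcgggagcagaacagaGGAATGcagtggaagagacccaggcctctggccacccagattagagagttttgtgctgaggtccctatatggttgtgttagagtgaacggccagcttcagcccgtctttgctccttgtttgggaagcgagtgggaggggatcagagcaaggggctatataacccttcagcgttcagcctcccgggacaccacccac
The Ldb3 box lay 35 to 26 bases before the gene start of the window shown. It lay 109 to 100 bases before a second listed start, whose window overlaps the one shown. The Myom1 box lay 99 to 90 bases before the start. These letters are a description of the windows and not evidence of binding.

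Per kilobase of their most abundant transcript, the 9 genes differed widely in level. Acta2 (smooth muscle alpha-actin) averaged 90.2 CPM per kilobase over the 11 libraries and Tagln (transgelin, an actin-binding protein) 87.5, and their ranges overlapped. In S-number libraries Tagln had the higher median, 46.5 against 37.3 for Acta2. By the mean over the 11 libraries Myh11, the smooth muscle myosin heavy chain, followed at 31.9. Then came Tpm2 (beta-tropomyosin) at 23.1 and Ppp1r14a (CPI-17, an inhibitor of myosin phosphatase) at 22.9 CPM per kilobase. Lower levels belonged to Myom1 (myomesin 1, known from the M-band of striated muscle) at 6.39, Cnn1 (calponin 1) at 4.28, Ldb3 (ZASP, known from the Z-disc) at 1.66 and Cacna1c (the pore subunit of the L-type calcium channel) at 0.883. With transcripts summed and divided by their mean length, Cnn1 ranked ninth and Cacna1c seventh instead. For comparison, the myosin light chain gene Myl9 averaged 395 and the light chain kinase gene Mylk 121 CPM per kilobase. Both stood above all 9 genes on this scale.

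Between title forms, each of the 9 genes was higher in all 6 group-tag libraries than in all 5 S-number libraries, as the choice of the genes had fixed. Of all 13734 genes, 5.13% were separated in this way. Because the genes were chosen on this contrast, its values are given as a description with no test. The fit of all libraries with group as a term gave group-tag over S-number folds of 1.90 for Myom1 to 9.81 for Cnn1, with a median log2 difference of 1.20, against -0.02 over all genes.

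Acta2, with the highest mean of the genes per kilobase over the 11 libraries, shows the pattern. Its group-tag libraries held 245 and 309.5 CPM in db/db puerarin, 184.6 and 142 CPM in db/db vehicle, and 208 and 195 CPM in db/m vehicle. Its S-number libraries held 81.8 CPM in db/db puerarin, 48.1 and 50.5 CPM in db/db vehicle, and 61.0 and 60.2 CPM in db/m vehicle. The lowest group-tag library, db/db vehicle 3, was 1.74 times the highest S-number library, and within each title form puerarin was highest and db/db vehicle lowest, with no overlap. Its log2 difference between title forms was 1.74 (SE 0.09) in the fit, and 1.75, 1.72 and 1.73 within db/db puerarin, db/db vehicle and db/m vehicle. Actin genes resemble each other in coding sequence, and how reads were assigned is not stated, so part of the Acta2 reads may be uncertain.

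Tagln ran close to Acta2. In group-tag libraries it was at 143.7 and 150.2 CPM in db/db puerarin, 107 and 87.9 CPM in db/db vehicle, and 105 and 112 CPM in db/m vehicle. The S-number libraries had 63.2 CPM in db/db puerarin, 39.0 and 48.7 CPM in db/db vehicle, and 46.4 and 46.2 CPM in db/m vehicle. Puerarin was again highest within each form, while db/db vehicle and db/m vehicle overlapped. The difference between title forms was 1.20 on the log2 scale (SE 0.08).

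Myh11 had a wider range. Its group-tag libraries held 425 and 553 CPM in db/db puerarin, 343 and 265 CPM in db/db vehicle, and 469.7 and 378 CPM in db/m vehicle. Its S-number libraries held 79.0 CPM in db/db puerarin, 55.8 and 66.9 CPM in db/db vehicle, and 103 and 89.4 CPM in db/m vehicle. Here db/db vehicle was lowest in each form, and db/m vehicle, not puerarin, was highest among the S-number libraries. The log2 difference between title forms was 2.32 (SE 0.13), or 5.01-fold.

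With transcripts summed, Cnn1 was the least counted of the genes, and it had the widest difference between title forms. Cnn1 had 26 to 446 reads per library. Its 1 transcript totalled 2242 reads over the 11 libraries, against 2094 for the most counted single transcript of Ldb3. Group-tag libraries held 11.1 and 11.6 CPM in db/db puerarin, 7.48 and 5.84 CPM in db/db vehicle, and 9.66 and 8.01 CPM in db/m vehicle. S-number libraries held 0.597 CPM in db/db puerarin, 0.715 and 1.32 CPM in db/db vehicle, and 1.14 and 0.588 CPM in db/m vehicle. The lowest group-tag library was 4.42 times the highest S-number library. The fitted log2 difference was 3.29 (SE 0.29), and within single groups it was 4.19 (db/db puerarin), 2.73 (db/db vehicle) and 3.38 (db/m vehicle).

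Tpm2, which lies along the actin filament, was at 129 and 177 CPM in the group-tag libraries of db/db puerarin, 111 and 89.2 CPM in db/db vehicle, and 103 and 98.5 CPM in db/m vehicle. In S-number libraries it was at 75.2 CPM in db/db puerarin, 46.5 and 47.8 CPM in db/db vehicle, and 50.6 and 49.8 CPM in db/m vehicle. Library S144 stood above the other 4 S-number libraries, and the lowest group-tag library was 1.19 times S144. The title form difference was 1.04 on the log2 scale (SE 0.09).

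Ppp1r14a had the narrowest gap. The group-tag libraries were at 14.2 and 13.7 CPM in db/db puerarin, 8.97 and 7.55 CPM in db/db vehicle, and 7.31 and 9.60 CPM in db/m vehicle. The S-number libraries were at 6.85 CPM in db/db puerarin, 3.75 and 4.48 CPM in db/db vehicle, and 3.48 and 3.34 CPM in db/m vehicle. The lowest group-tag library (db/m vehicle 2) was only 1.07 times the highest S-number library (db/db puerarin S144). The fitted log2 difference was 1.12 (SE 0.12).

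The 2 sarcomere-associated genes behaved unequally. Ldb3 was at 40.0 and 44.9 CPM in the group-tag libraries of db/db puerarin, 38.4 and 25.9 CPM in db/db vehicle, and 41.8 and 28.5 CPM in db/m vehicle. Its S-number libraries held 8.27 CPM in db/db puerarin, 6.94 and 6.35 CPM in db/db vehicle, and 9.80 and 8.79 CPM in db/m vehicle. Its log2 difference between title forms, 2.16 (SE 0.15), was close to that of Myh11, and among group-tag libraries db/m vehicle overlapped both other groups. Myom1 was at 63.4 and 75.9 CPM in the group-tag libraries of db/db puerarin, 51.5 and 46.7 CPM in db/db vehicle, and 49.4 and 49.9 CPM in db/m vehicle. Its S-number libraries held 39.0 CPM in db/db puerarin, 27.0 and 29.1 CPM in db/db vehicle, and 23.8 and 22.3 CPM in db/m vehicle. The Myom1 difference of 0.93 (SE 0.08) was the smallest of the 9, and among S-number libraries the groups stood in the order puerarin, db/db vehicle, db/m vehicle with no overlap.

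Cacna1c departed from the others in its order of groups. In group-tag libraries it was at 97.1 and 118 CPM in db/db puerarin, 87.7 and 77.8 CPM in db/db vehicle, and 128 and 123 CPM in db/m vehicle. In S-number libraries it was at 41.0 CPM in db/db puerarin, 40.6 and 46.5 CPM in db/db vehicle, and 50.9 and 58.1 CPM in db/m vehicle. In each title form db/m vehicle was the highest group with no overlap. The log2 difference between forms was 1.15 (SE 0.10). The largest total among its 11 listed transcripts exceeded the smallest by 16.7%, so their sum counts most reads many times, and splice forms were not resolved. The same holds for the 5 transcripts of Ldb3 (6.78%), the 3 of Tpm2 (7.20%) and the pairs of Myom1 (5.39%) and Myh11 (2.89%).

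**Figure D1:**
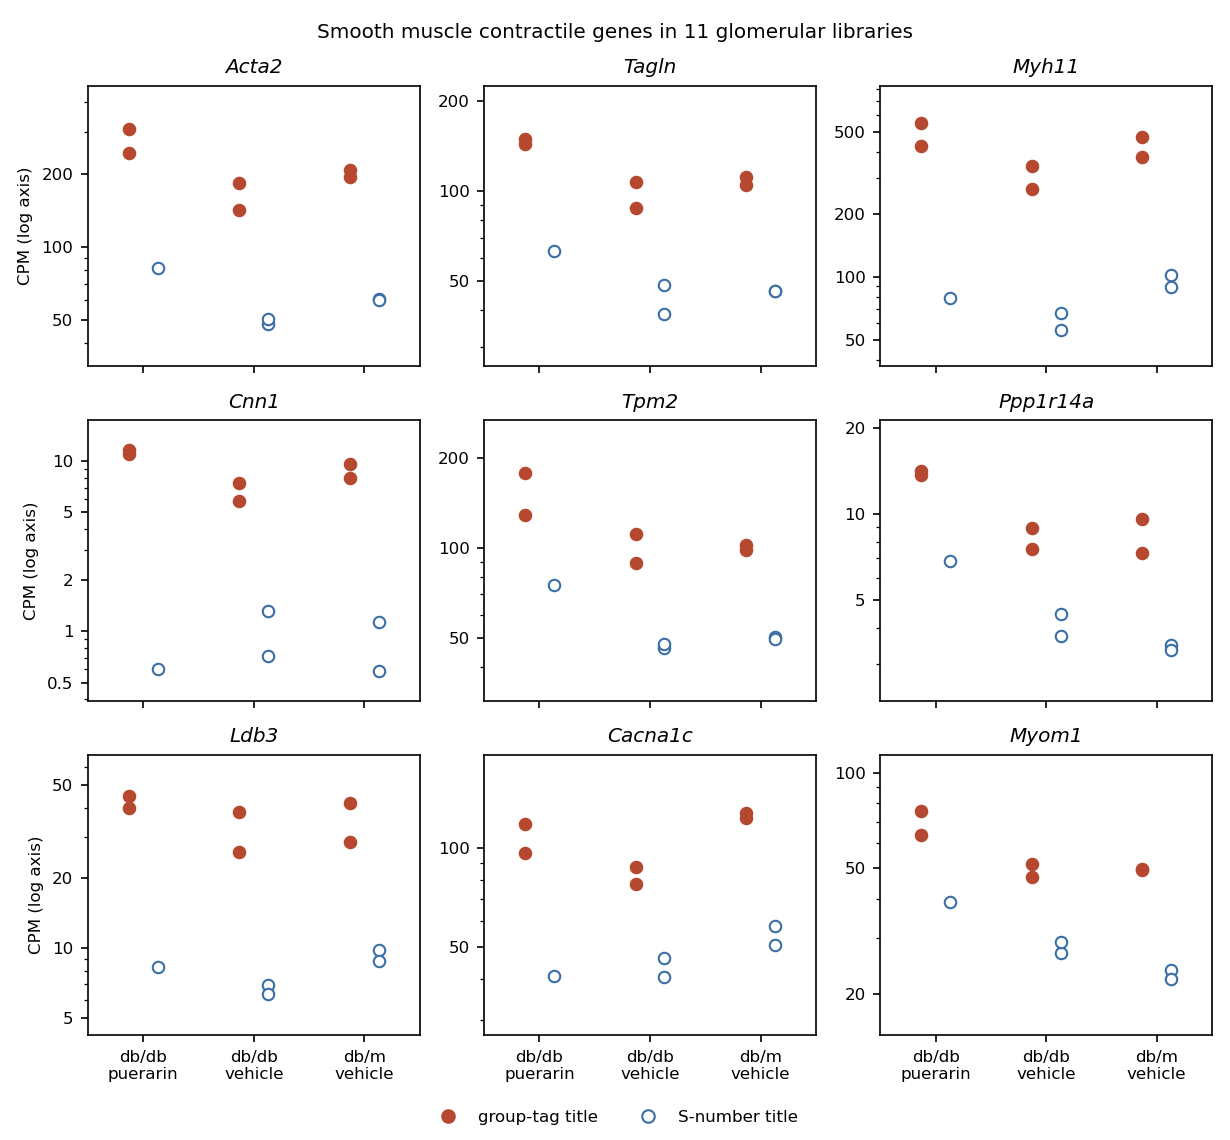
Levels of the 9 genes in each library, in CPM on a log axis whose range differs by panel, with db/db puerarin, db/db vehicle and db/m vehicle as columns; each point is 1 library, filled for group-tag and open for S-number titles. In every panel all 6 filled points lie above all 5 open points, and the gap is widest for Cnn1 and narrowest for Ppp1r14a.

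Averaged over title forms, group levels had SDs that the title forms dominate. The means also depend on the mix of forms, since group-tag libraries make up a larger share of db/db puerarin than of the other groups. For these 9 genes that mix raises the puerarin means. With title form as a term, Myh11 was at 0.02 on the log2 scale in db/db puerarin over db/m vehicle. Acta2 averaged 212 ± 117 CPM in db/db puerarin (SD, n = 3), 106 ± 68.1 CPM in db/db vehicle (SD, n = 4) and 131 ± 81.5 CPM in db/m vehicle (SD, n = 4). Myh11 averaged 352 ± 245 CPM in db/db puerarin (SD, n = 3), 183 ± 143.6 CPM in db/db vehicle (SD, n = 4) and 260.0 ± 193 CPM in db/m vehicle (SD, n = 4). With title forms pooled, 1.51% of all genes were separated upward and 1.72% downward in db/db puerarin over db/db vehicle. The shares were 3.73% and 3.92% in db/db puerarin over db/m vehicle, and 2.48% in each direction in db/db vehicle over db/m vehicle. For the 9 genes, overlap of the groups in all 3 comparisons was fixed by their choice, because every group holds libraries of both title forms. Group comparisons were therefore made with title form as a term in edgeR's quasi-likelihood test, over all 13734 genes with Benjamini-Hochberg adjustment. The 3 comparisons share groups, so their values are set side by side and not counted as independent of each other.

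Puerarin-treated against vehicle-treated db/db glomeruli addressed the effect of the compound in diabetic mice. All 9 genes had positive fitted values with puerarin, with a median log2 fold change of 0.56 against -0.02 over all genes. No gene of the 9 passed an adjusted p of 0.05, and neither did any other gene (0% of 13734). At an unadjusted p under 0.05 there were 6 of the 9, against 4.21% of all genes. Acta2 had the smallest p of all 13734 genes in this comparison (rank 1), Tagln was at rank 2, Tpm2 at rank 4, Ppp1r14a at rank 5 and Myom1 at rank 10.

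Acta2 was at 0.75 on the log2 scale (SE 0.11, edgeR adjusted p = 0.526), Tagln 0.56 (SE 0.10, edgeR adjusted p = 0.862) and Tpm2 0.64 (SE 0.12, edgeR adjusted p = 0.862). Ppp1r14a, at 0.73 (SE 0.14), Myh11, at 0.58 (SE 0.15), and Myom1, at 0.47 (SE 0.10), each had an edgeR adjusted p of 0.967. Ldb3 (0.39), Cnn1 (0.29, SE 0.34) and Cacna1c (0.19) had the same edgeR adjusted p of 0.967. Single libraries moved these values: Cnn1 was at 0.08 without db/db vehicle 3 and 0.62 without S144, Cacna1c at 0.08 without puerarin 3 and 0.31 without S144, and Ldb3 at 0.30 without db/db vehicle 3 and 0.57 without db/db vehicle 1. DESeq2, run as an alternative with the same terms, called 5 of the 9, namely Acta2, Tagln, Tpm2, Ppp1r14a and Myom1, and 15 genes in all (0.109%). Their DESeq2 adjusted p ran over 8.95e-06 for Acta2, 0.000727 for Tagln, 0.00314 for Tpm2, 0.0112 for Ppp1r14a and 0.0402 for Myom1.

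Within title forms the direction repeated for most of the genes. Acta2 differed by 0.77 among group-tag libraries and by 0.73 among S-number libraries on the log2 scale, Ppp1r14a by 0.76 and 0.74, Tpm2 by 0.60 and 0.67, Tagln by 0.60 and 0.54, and Myom1 by 0.50 and 0.47. For 7 of the 9 genes every puerarin library was above every db/db vehicle library within both forms, against 4.81% of all genes in this direction. The exceptions were Cnn1 (0.77 among group-tag and -0.68 among S-number libraries) and Cacna1c (0.37 and -0.08). Within S-number titles puerarin was the single library S144, which had no replicate. Without puerarin 2 and 3, the libraries high in Xist, Acta2 was at 0.75 and Ppp1r14a at 0.83 with no adjusted p under 0.05, and Cnn1 turned to -0.57.

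Marker lists of other cell types also had medians away from 0 in this comparison. The 13 myeloid marker genes had a median log2 fold change of -1.19 with puerarin, and their summed level was 180 to 321 CPM in db/db puerarin against 195 to 1271 CPM in db/db vehicle. The 11 loop and distal tubule markers had a median of -0.60, with sums of 3177 to 10922 CPM in db/db puerarin against 6556 to 17283 CPM in db/db vehicle, and the 11 collecting duct markers had a median of -0.37, with sums of 108 to 848 CPM in db/db puerarin against 387 to 928 CPM in db/db vehicle. Of 14 proximal tubule markers 1 had a positive value (median -0.34), with sums of 1882 to 2193 CPM in db/db puerarin against 1151 to 4977 CPM in db/db vehicle. The 6 renin and juxtaglomerular genes had a median of 0.39, with 4 of 6 positive and sums of 727 to 747 CPM in db/db puerarin against 445 to 824 CPM in db/db vehicle. The 17 mesangial and pericyte genes had a median of -0.23, with 4 of 17 positive and sums of 3043 to 5182 CPM in db/db puerarin against 2702 to 5705 CPM in db/db vehicle. Medians of the remaining lists were 0.14 for arterial and for glomerular endothelial genes, 0.09 for podocyte and -0.01 for fibroblast genes. No gene of these lists passed the test. A mean tubule level was formed by averaging the levels of the proximal tubule, loop and distal tubule, and collecting duct lists. With this mean tubule level as a covariate, Acta2 was at 0.72 and Tpm2 at 0.61. The part of these cell types and of Xist status in the result was not tested.

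**Figure D2:**
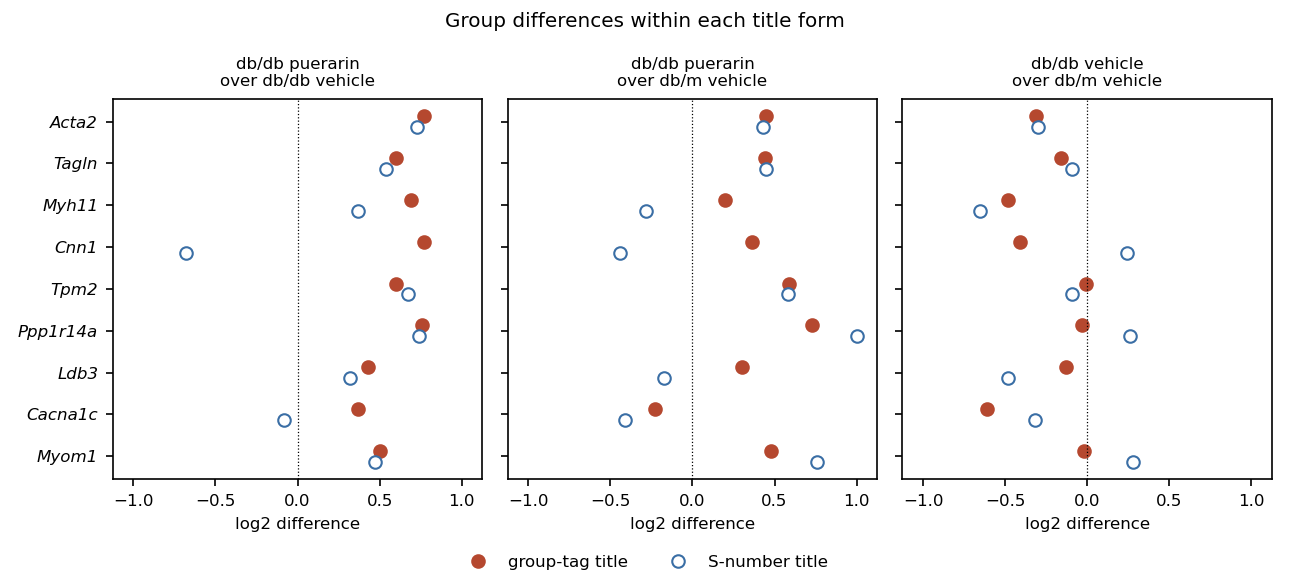
Log2 differences of the 9 genes within each title form, for db/db puerarin over db/db vehicle, db/db puerarin over db/m vehicle and db/db vehicle over db/m vehicle; filled points are group-tag and open points S-number libraries, and each point is a difference of means. In the left panel both points of 7 genes lie right of 0, and Cnn1 has its points at 0.77 and -0.68.

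Vehicle-treated db/db against db/m glomeruli addressed the diabetic genotype. The 9 genes were not of one direction, with a median log2 fold change of -0.12, against 0.015 over all genes, and 2 of 9 higher in db/db. No gene of the 9 passed the test (0.0437% of all genes did), and 3 had an unadjusted p under 0.05, where 10.3% of all genes did. These 3 were Myh11 (-0.57, SE 0.14, edgeR adjusted p = 0.192), Cacna1c (-0.46, SE 0.11, edgeR adjusted p = 0.182) and Acta2 (-0.30, SE 0.10, edgeR adjusted p = 0.336). For the same 3 genes every db/db vehicle library lay below every db/m vehicle library within both title forms, where 5.06% of all genes did. Myh11 differed by -0.48 among group-tag and -0.65 among S-number libraries, Cacna1c by -0.61 and -0.32, and Acta2 by -0.31 and -0.30.

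Of the other 6 genes, Ldb3 was at -0.30 (SE 0.16), Tagln at -0.12 (SE 0.09), Cnn1 at -0.11 (SE 0.31), Tpm2 at -0.05 (SE 0.11), Ppp1r14a at 0.11 (SE 0.14) and Myom1 at 0.13 (SE 0.09), with edgeR adjusted p of 0.585 to 0.933. DESeq2 called Myh11 (adjusted p = 0.0159) and Cacna1c (adjusted p = 0.0155) among the 9, and 2.11% of all genes. The 13 myeloid markers had a median log2 fold change of 1.09 in this comparison with no gene past the test, and their summed level was 195 to 1271 CPM in db/db vehicle, highest in library 1, against 119 to 295 CPM in db/m vehicle. The 11 collecting duct markers had a median of 0.47, with 10 of 11 positive and sums of 387 to 928 CPM in db/db vehicle against 164 to 609 CPM in db/m vehicle. Among the 11 loop and distal tubule markers 9 were positive (median 0.37), with sums of 6556 to 17283 CPM in db/db vehicle against 4332 to 12889 CPM in db/m vehicle. Medians were 0.34 for arterial, 0.20 for proximal tubule, -0.21 for renin and juxtaglomerular, -0.14 for mesangial and pericyte, -0.08 for glomerular endothelial and -0.03 for fibroblast genes, none with a gene past the test. Of 17 podocyte genes (median -0.18) 1 was lower past the test, the transcription factor gene Foxc2 (-0.70, edgeR adjusted p = 0.0398), a call lost in 8 of 11 fits that each left out 1 library. The part of these cell types in the values of the 9 genes was not tested.

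Puerarin-treated db/db against db/m glomeruli compared treated diabetic with non-diabetic tissue. Of the 9 genes 8 had positive values, with a median log2 fold change of 0.45, against -0.009 over all genes. None of the 9 passed the test in edgeR (0.182% of all genes did), 5 had an unadjusted p under 0.05 (10.3% of all genes did), and DESeq2 called the same 5 (2.16% of all genes). These were Ppp1r14a (0.84, SE 0.14, edgeR adjusted p = 0.0602), Myom1 (0.61, SE 0.10, edgeR adjusted p = 0.0551), Tpm2 (0.59, SE 0.12, edgeR adjusted p = 0.0886), Tagln (0.45, SE 0.10, edgeR adjusted p = 0.126) and Acta2 (0.45, SE 0.11, edgeR adjusted p = 0.156). Every puerarin library lay above every db/m vehicle library within both forms for these 5, where 7.33% of all genes did. Cacna1c was below in both (-0.27 in the fit, edgeR adjusted p = 0.491), where 8.46% of all genes did. Myh11, at 0.02, Ldb3, at 0.09, and Cnn1, at 0.18, had small values whose sign differed between the title forms.

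Leaving out a library of neither group, db/db vehicle 1, brought Ppp1r14a, Myom1 and Tpm2 to an edgeR adjusted p of 0.0491, where 74 genes passed (0.539% of all genes). With the tubule level as a covariate, 354 genes passed (2.58%), 4 of the 9 among them, namely Ppp1r14a (edgeR adjusted p = 0.0193), Myom1 (0.0162), Tpm2 (0.0283) and Tagln (0.0436).

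Few markers of other cell types passed the test in this comparison. Of 12 arterial genes (median 0.34) 1 was higher, Fbln5 (fibulin 5, an elastic fibre protein; 0.71, edgeR adjusted p = 0.0454), and of 15 glomerular endothelial genes (median 0.08) 1, Gpihbp1 (the capillary anchor of lipoprotein lipase; 1.35, edgeR adjusted p = 0.0451). Of 17 podocyte genes (median -0.14) 1 was lower, Foxc2 (-0.61, edgeR adjusted p = 0.0454). All 3 calls were lost in 9 of 11 fits that each left out 1 library, every one but those without db/db vehicle 1 or 3. The medians without a gene past the test were -0.19 for mesangial and pericyte, -0.18 for renin and juxtaglomerular, -0.14 for fibroblast, -0.14 for loop and distal tubule, 0 for proximal tubule, 0 for collecting duct and 0.13 for myeloid genes. The part of these cell types in the values of the 9 genes was not tested.

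Whether the title form difference itself varied with genotype was tested as an interaction on vehicle libraries, db/db minus db/m. None of the 9 genes passed, where 0.0218% of all genes did, and none had an unadjusted p under 0.05, where 3.33% did. In this interaction the values ran over -0.65 (Cnn1, SE 0.51) to 0.35 (Ldb3, SE 0.33), each with an edgeR adjusted p of 0.9998. DESeq2 called none of the 9 either. Missing the threshold does not show that the differences were equal.

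Ratios between the genes show where they departed from each other, and they were chosen after their values were seen. Myh11 relative to Acta2, from their highest transcripts, was 0.883 and 0.907 in the group-tag libraries of db/db puerarin, 0.940 and 0.945 in db/db vehicle, and 1.14 and 0.980 in db/m vehicle. In S-number libraries the ratio was 0.495 in db/db puerarin, 0.591 and 0.671 in db/db vehicle, and 0.850 and 0.756 in db/m vehicle. Within each title form the groups did not overlap and stood in the same order. Cacna1c relative to Acta2 was also lowest with puerarin, at 0.0369 and 0.0352 in group-tag libraries and 0.0478 in S144, against 0.0455 and 0.0511 in group-tag and 0.0807 and 0.0874 in S-number libraries of db/db vehicle. These ratios show unequal change, not which of the genes changed.

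**Figure D3:**
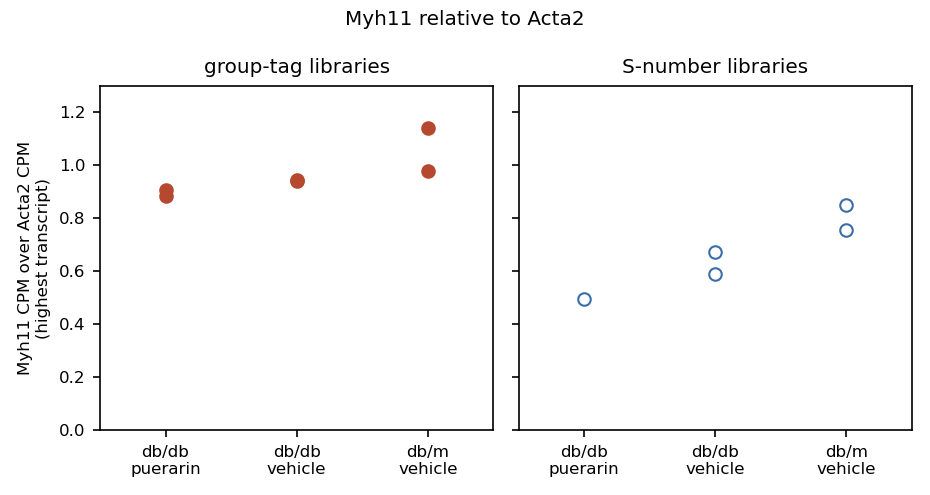
Ratio of Myh11 CPM to Acta2 CPM (highest transcript of each) in every library, by group, for group-tag libraries (left) and S-number libraries (right); each point is 1 library. Puerarin is lowest and db/m vehicle highest in each panel, at 0.883 and 0.907 against 1.14 and 0.980 on the left.

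Among the genes, Acta2 followed the rest most closely. Its profile (log2 CPM, centred on the mean of the 11 libraries) lay a root mean square distance of 0.145 from the mean of the other 8, against 0.272 for Tagln, 0.333 for Ldb3 and 0.373 for Tpm2. Cnn1, at 0.998, was farthest. The mean profile of the 9 genes was highest in db/db puerarin 3 (1.21) and lowest in db/db vehicle S152 (-1.17). The same distance was computed for the 13717 genes with a mean of at least 1 CPM over the 11 libraries, a count that includes the 9 genes. Outside the 9 genes it was smallest for Pln (phospholamban, an inhibitor of the sarcoplasmic calcium pump), at 0.222. Next came Susd5 (0.253), Pdlim3 (0.258), Olfr558 (0.268), Lmod1 (0.280), Kcna5 (0.283), Npas4 (0.294), Slc8a2 (0.297), Vipr1 (0.298) and Rbm24 (0.304). Pln was at 19.3 to 40.4 CPM in group-tag libraries and 9.29 to 13.4 CPM in S-number libraries.

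Most other genes of the contractile pathway did not pass the test between title forms. Of 19 other contractile apparatus genes measured, 2 were higher in group-tag libraries past the test and none lower, where 5.65% of all genes were higher and 1.32% lower. These were Lmod1 (leiomodin 1, which nucleates actin filaments; log2 difference 1.25, edgeR adjusted p = 0.00245) and Pdlim3 (an actinin-binding protein; 1.37, edgeR adjusted p = 0.00245). Lmod1 held 8.29 to 16.9 CPM in group-tag libraries against 3.57 to 6.53 CPM in S-number libraries. The median of the list was 0.18. Mylk, the kinase that phosphorylates the myosin light chain, was at 487 to 639 CPM in group-tag libraries and 532 to 669 CPM in S-number libraries. Myl9, the light chain itself, was at 222 to 357 CPM in group-tag libraries and 157 to 325 CPM in S-number libraries, and so the title forms overlapped for both.

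Of 20 genes of contraction signalling, 3 were higher past the test in group-tag libraries: Pln (1.38, edgeR adjusted p = 0.00148), Kcnmb1 (the smooth muscle subunit of the calcium-activated potassium channel; 0.94, edgeR adjusted p = 0.0270) and its pore gene Kcnma1 (0.29, edgeR adjusted p = 0.0423). The list's median was 0.01. None of 10 regulators of the SRF and myocardin family passed (median 0.02). The smallest p among them belonged to Mef2c (-0.53, edgeR adjusted p = 0.138), Mkl1 (0.22, edgeR adjusted p = 0.169) and Myocd, which encodes myocardin (0.52, edgeR adjusted p = 0.198). In puerarin over db/db vehicle all 10 regulators had positive values with a median of 0.17, and none passed. In that comparison 15 of 17 podocyte, 13 of 15 glomerular endothelial and 16 of 19 other contractile apparatus genes were also positive. Of 13 myeloid, 11 loop and distal tubule and 11 collecting duct genes, 0 were positive. Lmod1, at 0.57, Tpm1, at 0.34, and Myl6, at 0.24, had the smallest p of the contractile apparatus there, each with an edgeR adjusted p of 0.967. In db/db vehicle over db/m vehicle, Lmod1 was at -0.51 (edgeR adjusted p = 0.292), and in db/db puerarin over db/m vehicle Tpm1 and Myl9 were both at 0.64 (edgeR adjusted p = 0.0752 and 0.137).

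Striated muscle genes were examined because Ldb3 and Myom1 belong to the sarcomere. Of 23 listed genes, Ldb3 and Myom1 included, 14 were among the genes measured, and the defining skeletal and cardiac genes Acta1, Ckm, Actn2, Tnni3 and Myl2 were not among them. Of the 12 that were not among the 9 genes, Myh6, the cardiac alpha-myosin heavy chain, was higher in group-tag libraries (log2 difference 2.32, edgeR adjusted p = 0.000478) and Nebl (nebulette) lower (-0.68, edgeR adjusted p = 0.0402). Myh6 was at 24.7 and 21.7 CPM in the group-tag libraries of db/db puerarin, 13.1 and 9.37 CPM in db/db vehicle, and 26.0 and 32.5 CPM in db/m vehicle. In S-number libraries it was at 2.83 CPM in db/db puerarin, 3.32 and 3.16 CPM in db/db vehicle, and 5.74 and 5.42 CPM in db/m vehicle. The median of the 12 was -0.15. Tnnt2 (cardiac troponin T) was the only one past the test between groups, higher in db/db puerarin than in db/m vehicle (log2 fold change 1.70, edgeR adjusted p = 0.0451). That call was lost in the same 9 of 11 fits, where the edgeR adjusted p reached 0.137 (without S144), and without puerarin 2 and 3 together.

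Markers of other cell types moved with the title form as well. Of 11 loop and distal tubule genes 8 were higher past the test in group-tag libraries (median log2 difference 1.27), with summed levels of 8928 to 17283 CPM in group-tag against 3177 to 8262 CPM in S-number libraries. Of 11 collecting duct genes 5 were higher (median 1.29), with sums of 545 to 928 CPM in group-tag against 108 to 408 CPM in S-number libraries. Proximal tubule genes had a median of -0.50, with 1 of 14 lower past the test and sums of 1151 to 4977 CPM in group-tag against 1882 to 8724 CPM in S-number libraries. Mesangial and pericyte genes had a median of -0.21, with 1 of 17 higher (Rgs5, 0.66, edgeR adjusted p = 0.00483) and 1 lower (Serpine2, -0.73, edgeR adjusted p = 0.0247), and sums of 2702 to 5705 CPM in group-tag against 4594 to 5454 CPM in S-number libraries. Podocyte genes had a median of -0.24 and glomerular endothelial genes of -0.31, with 1 of 17 and 1 of 15 lower past the test. Among 12 arterial genes Eln (elastin, 0.88, edgeR adjusted p = 0.00856) and Fbln2 (fibulin 2, 0.56, edgeR adjusted p = 0.0201) were higher. Of 6 renin and juxtaglomerular genes 1 was higher, again Rgs5, and of 8 fibroblast genes 1 (Col3a1, 0.48, edgeR adjusted p = 0.0402), while none of 13 myeloid genes passed (median 0.57). Of the genes named so far for a call between title forms, Lmod1, Pdlim3, Pln, Myh6, Rgs5 and Eln passed whichever single library was left out. Col3a1 lost its call in each of these 11 fits, Kcnma1 in 9, Nebl in 8, Kcnmb1 and Serpine2 in 7 each, and Fbln2 in 3. Among loop and distal tubule genes, Umod, Slc12a1, Calb1, Kcnj1 and Trpm6 each lost theirs in 9, Slc12a3 in 6, Wnk1 in 4 and Egf in 1. Of the collecting duct calls only Avpr2 passed throughout, with Atp6v0d2 lost in 9 fits and Hsd11b2, Scnn1b and Scnn1g in 5 each. The lower calls of Foxc2 (podocyte), Eng (glomerular endothelial) and Cyp4b1 (proximal tubule) were lost in 9, 8 and 8 fits.

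The part of these cell types in the difference of the 9 genes was not tested. With the tubule level as a covariate, their median title form difference was 1.23 on the log2 scale. That level averages proximal tubule genes (median -0.50 between title forms) with loop and distal tubule (1.27) and collecting duct genes (1.29). It therefore does not adjust for each tubule segment by itself, and the title forms overlapped on it.

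**Figure D4:**
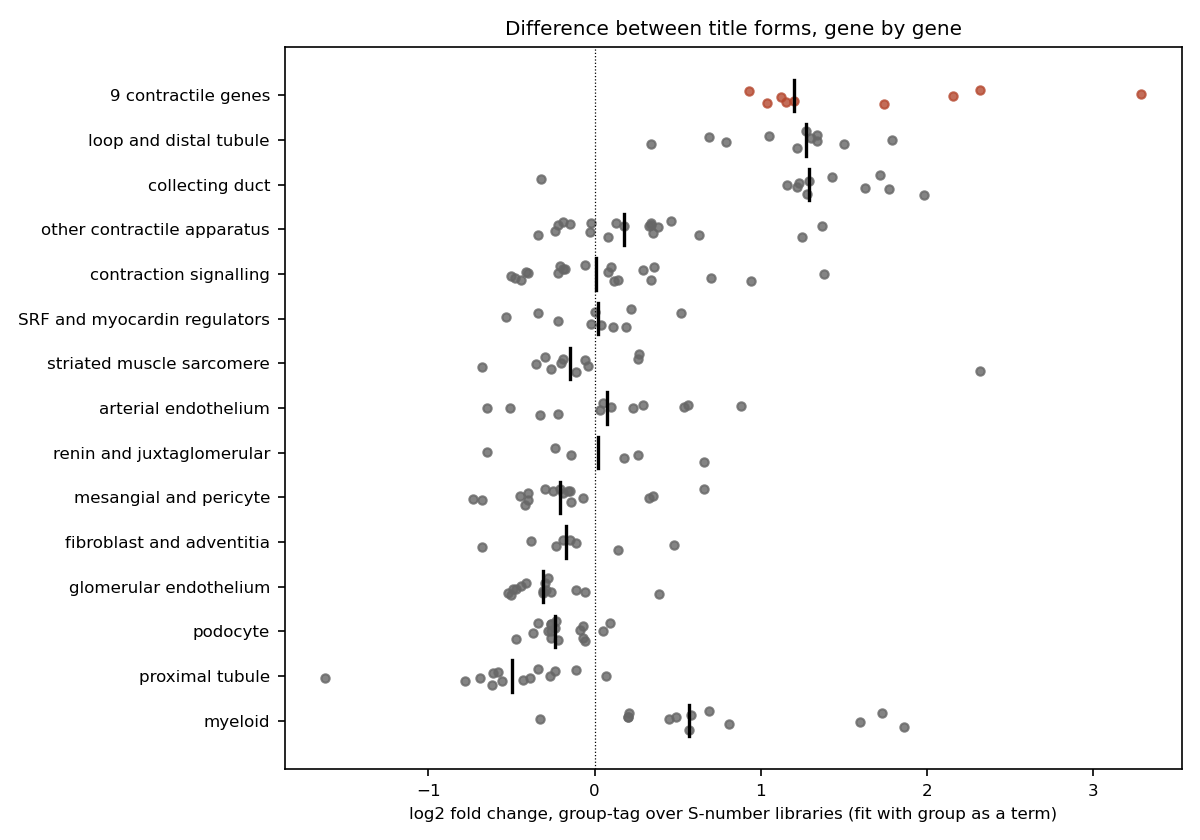
Log2 fold change of group-tag over S-number libraries for each gene, by list; the bar marks the list's median and points are spread vertically for visibility. The 9 contractile genes lie between 0.93 and 3.29, beside the loop and distal tubule and collecting duct lists with medians of 1.27 and 1.29, while most other lists centre near 0 or below.

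**Figure D5:**
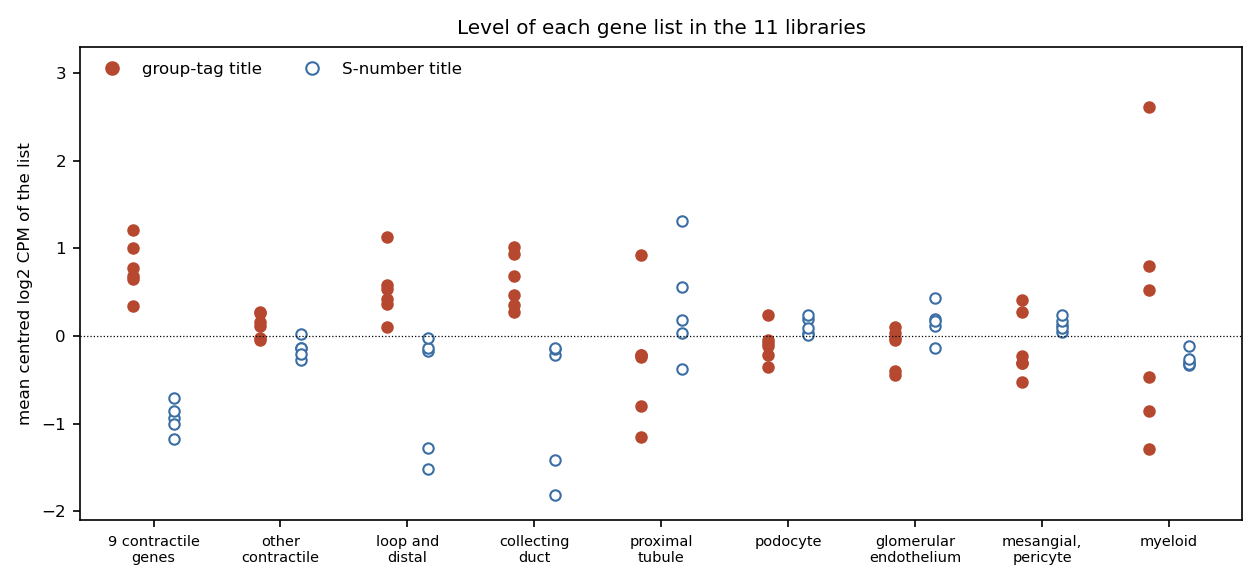
Mean centred log2 CPM of each gene list in every library, with group-tag libraries (filled) left of S-number libraries (open); each point is 1 library. The 9 contractile genes lie at 0.34 to 1.21 in group-tag and -1.17 to -0.71 in S-number libraries, and the highest myeloid point, 2.61, is db/db vehicle 1.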

How the data were processed

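Glomerular RNA of 11 libraries was sequenced after a check of its integrity, per the labels. BWA, limma and the mouse build mm10 are named in the submitters' processing notes, and neither the way reads were assigned nor any use of strand is stated in the sources used here. The authors deposited whole-number counts for 22320 RefSeq transcripts. Of 15 count columns, 4 had names that match no sample and stayed unused. The log2 values that the authors deposited equal log2 counts plus a library constant and stayed unused too. Levels per kilobase used the deposited transcript lengths in bases.

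Counts were summed per symbol to 13734 genes, with 13 blank cells set to 0 and 50 transcripts with date-like symbols renamed through their identifiers. A filter (1 count or more in at least 3 libraries) took out 0 genes. edgeR 4.0.16 in R 4.3.3 (glmQLFit, glmQLFTest, TMM factors) fitted all 11 libraries with group and title form as terms, leaving 7 residual degrees of freedom beside a prior of 3.14. Another fit added their interaction. P-values are two-sided, adjusted over all genes by Benjamini-Hochberg, with a threshold of 0.05. They cover the spread between these libraries only. DESeq2 1.42.0, other scalings, filters, transcript choices, model terms and left-out libraries served as alternatives.

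The 9 genes and all lists were chosen with earlier results of these data known. The text names the 9 genes, those past the test in 4 muscle lists (otherwise up to 3 with the smallest p per comparison) and the 10 genes nearest in profile. Marker genes and genes that set a library apart were added after their values were seen.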

Additional observations from a re-analysis of the deposited data

Results flagged for a closer look

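Cnn1 was set apart because its difference between db/db puerarin and db/db vehicle took opposite directions in the 2 title forms. Among group-tag libraries every puerarin library was above every vehicle library, with a log2 difference of 0.77. Among S-number libraries the single puerarin library was below both vehicle libraries, with a log2 difference of -0.68. The difference between these values was not tested, and Cnn1 had as few as 26 reads in a library.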

How the results depend on the processing

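The median title form difference of the 9 genes (1.20) was 1.16 to 1.25 when each library was left out in turn and 1.38 within db/db puerarin alone. The count of all genes past the test between title forms (957) was 1885 with DESeq2, 341 leaving out db/m vehicle S184 and S185, and 81 leaving out db/db puerarin 2 and 3. When 1 library was left out it ran over 163 (without db/db puerarin S144) to 1791 (without db/db vehicle 1).

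For db/db vehicle over db/m vehicle, 6 genes passed, against 290 with DESeq2 (2 of them among the 9 genes), 1 with no title form term, 97 with the tubule covariate, 0 leaving out S184 and S185, 2 leaving out puerarin 2 and 3, 2 with only the groups compared, and 0 (without db/db vehicle S153) to 82 (without db/db vehicle 1) when 1 library was left out. Leaving out S184 and S185 turned Ppp1r14a to -0.03 and Myom1 to -0.01. Single libraries moved Cnn1 over -0.40 to 0.08 and Tpm2 over -0.11 to 0.0048.

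For db/db puerarin over db/db vehicle, no gene passed, against 15 with DESeq2 (5 among the 9) and 0 to 5 when 1 library was left out (5 without S144). Leaving out puerarin 2 and 3 turned Cnn1 to -0.57, Cacna1c to -0.0017 and Myh6 to -0.03.

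For db/db puerarin over db/m vehicle, 25 genes passed, against 297 with DESeq2 (5 among the 9), 5 with no title form term, 354 with the tubule covariate (4 among the 9), 0 leaving out S184 and S185, 0 leaving out puerarin 2 and 3, and 5 with only the groups compared. When 1 library was left out the count was 0 (without db/db vehicle S152) to 74 (without db/db vehicle 1), with 0 to 3 of the 9 genes. Leaving out puerarin 2 and 3 turned Myh11 to -0.22, Cnn1 to -0.70 and Ldb3 to -0.06. Single libraries moved Myh11 over -0.12 to 0.17 and Ldb3 over -0.06 to 0.18.

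The interaction had 3 genes past the test, 51 with DESeq2, and 1 to 103 when 1 library was left out (103 without db/db vehicle 3), where Acta2 ranged over -0.24 to 0.13, Tagln over -0.26 to 0.10, Myh11 over -0.07 to 0.30 and Tpm2 over -0.12 to 0.19. The causes of these shifts were not tested.

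Deviations of same-numbered group-tag libraries correlated at -0.10 to 0.06 across genes. Within a group the group-tag libraries deviate from their mean by equal and opposite amounts. These correlations therefore cannot show whether title numbers pair the libraries. With the title number as a replicate block, 56 genes passed for db/db vehicle over db/m vehicle, 0 for db/db puerarin over db/db vehicle and 49 for db/db puerarin over db/m vehicle, with 0 of the 9 genes in each.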
